A study of Mus musculus with 17 samples.

Results

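The NRF2 and metal response genes described here are 10 mouse genes: Hmox1, Gclc, Gclm, Gsr, Gstm1, Srxn1, Txnrd1, Nqo1, Mt1 and Mt2. They were chosen by name, with earlier results of these data known. Each was read from the probe sets that the platform annotation pairs with its single symbol. This gave 22 of the 45037 probe sets tested and 10 of the 18193 genes measured. All 10 had at least 1 probe set. The samples were pancreatic islets, the clusters of hormone-secreting cells of the pancreas, taken from C57BL/6 mice and kept in F12K medium with 10% fetal bovine serum. Islets harvested at 24 h (6 arrays) and at 48 h (6 arrays) were set against islets harvested at 0 h, directly after isolation (5 arrays). Each of 6 batches was 1 pool of islets from 4 mice, divided over the times, so a replicate is a batch and not a mouse, and batch 5 had no 0 h array among those analysed here. All groups shared the strain, and the labels used here name no allele, drug, age or sex. Isolation itself was common to every sample, and no islets before isolation were compared.

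NRF2, encoded by Nfe2l2, is a transcription factor that is kept low by KEAP1, which hands it to the proteasome. Oxidants and electrophiles modify KEAP1, NRF2 then escapes degradation, pairs with small MAF proteins and binds antioxidant response elements (AREs), and BACH1 competes for these sites until haem displaces it. MTF1 senses free zinc and binds metal response elements (MREs), above all in the metallothionein genes. Beta cells are known for low levels of several antioxidant enzymes and for a high content of zinc, which is packed with insulin.

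All 10 genes were higher at 24 h than at 0 h and passed the test, a limma fit over all probe sets with Benjamini-Hochberg adjustment and a threshold of adjusted p under 0.05. Of all 18193 genes, 5.44% passed in that direction. The arrays of the 2 times did not overlap for any of the 10, against 3.92% of all genes that were higher with no overlap. At 48 h all 10 still passed as higher than at 0 h, against 6.45% of all genes, and 7 of the 10 had no overlap, against 5.17% of all genes. The median log2 difference of the 10 was 1.36 at 24 h and 0.82 at 48 h against 0 h, while that of all genes was -0.01 and -0.02. From 24 h to 48 h, 3 of the 10 fell (Hmox1, Srxn1 and Gstm1), against 0.33% of all genes, 0 rose, against 0.429% of all genes, and 7 did not pass. By the probe set with the highest mean level of each gene, only Hmox1 and Srxn1 fell with no overlap between these times, as 0.654% of all genes did. Among their other probe sets, 1 of Gclm (-0.61, adjusted p = 0.0127) and 1 of Gstm1 (-0.44, adjusted p = 0.0818) were also lower with no overlap.

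**Figure D1:**
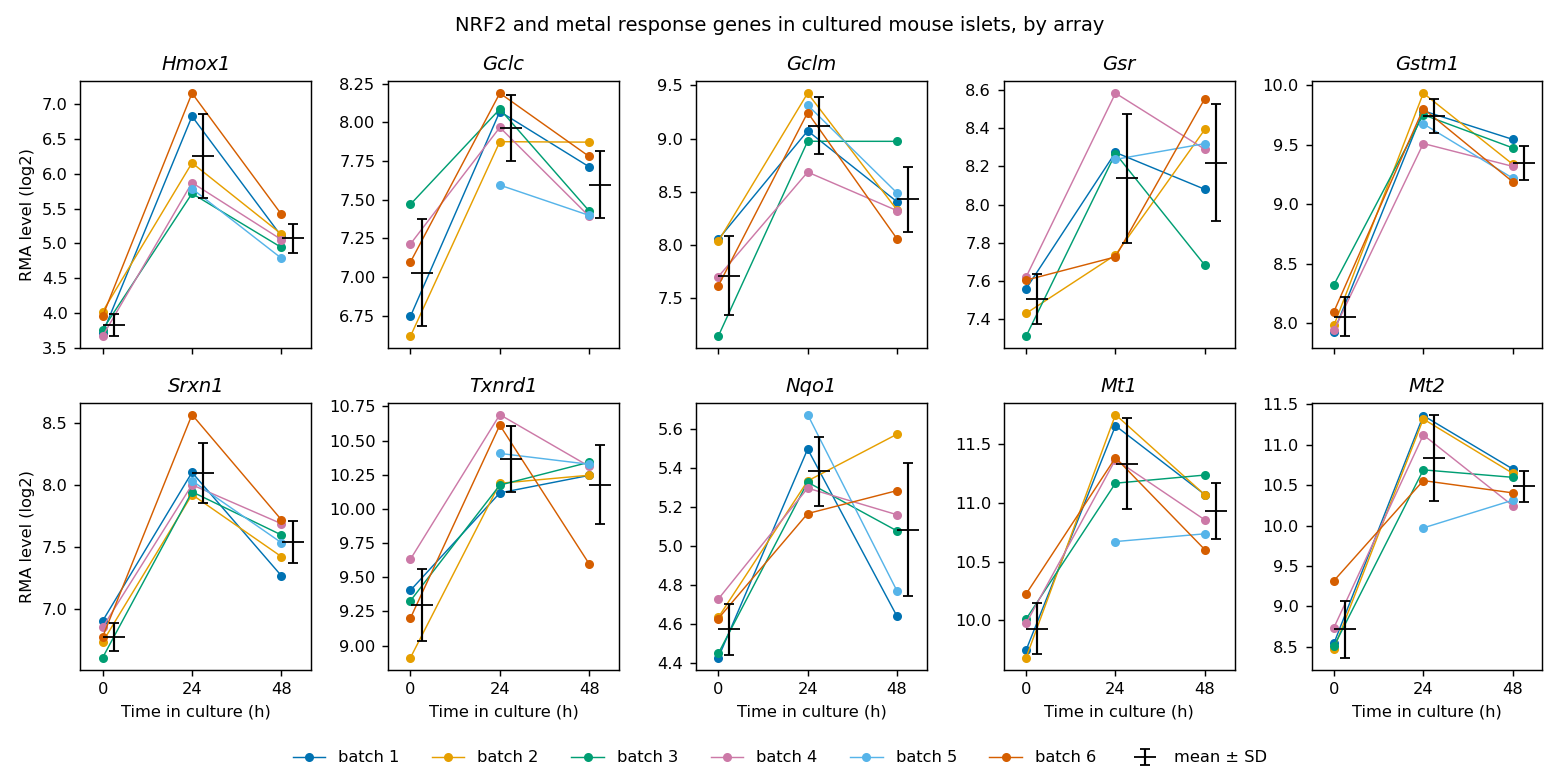
Level of each gene (RMA, log2) against time in culture (h) on 17 arrays, with the arrays of 1 batch joined by a line and black marks for the mean ± SD (n = 5 at 0 h, n = 6 at 24 h and 48 h). Every line that starts at 0 h goes up to 24 h, and the lines of Hmox1, Gclc, Gclm, Gstm1 and Srxn1 go down in 6 of 6 batches from 24 h to 48 h.

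Array medians lay between 3.47 and 3.57 on the log2 scale, and pairs of arrays correlated at 0.976 or more across probe sets. The arrays least like others of their own time were 24 h replicate 5 and 0 h replicate 3 (median correlation 0.988 and 0.987), and without both, calls against 0 h were lost for Gsr, Bach1 and Prdx4 at 24 h and for Sesn2, Gpx3, Hmox2 and Blvrb at 48 h among the genes named below from the lists and the 10. Among the same genes, Nfe2l2 gained a call at 24 h. No detection call was used, so levels close to 3.52, the median of the whole table, could not be told from background. The islet label was matched by 9 of 9 measured endocrine markers above that median on all 17 arrays. Rescaling moved the split of calls over all probe sets at 48 h against 0 h. As deposited 55.1% of the calls were higher, 67.8% after centring each array on its median and 48.9% after a further quantile normalization. At 48 h against 24 h the shares were 60%, 73.4% and 46.2%, and the 10 genes kept their direction in all 3 comparisons under both.

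The haem-degrading enzyme haem oxygenase 1 is encoded by Hmox1, whose level was among the most changed of the 10. It stood at 3.71, 4.02, 3.77, 3.67 and 3.96 at 0 h, at a lowest of 5.72, a median of 6.01 and a highest of 7.15 at 24 h, and at 4.79, 5.08 and 5.42 in the same order at 48 h. The 3 times did not overlap, and the 0 h arrays lay close to the table's median, so that the fold may be understated. Hmox1 was 5.37-fold higher at 24 h (log2 difference 2.42 ± 0.21, SE, limma adjusted p = 4.47e-07) and 2.37-fold higher at 48 h (1.25 ± 0.21, adjusted p = 0.000751) than at 0 h. It then fell by 1.18 on the log2 scale from 24 h to 48 h (SE 0.20, adjusted p = 0.0107), in 6 of 6 batches. The 24 h arrays were uneven: replicates 6 and 1 stood at 7.15 and 6.82, and the other 4 lay between 5.72 and 6.15. At 48 h the spread was smaller, with an SD of 0.21 against 0.60 at 24 h.

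Metallothioneins are small cysteine-rich proteins that bind zinc and copper, and Mt1 and Mt2 are their widely expressed forms. Mt2 stood at 8.54, 8.48, 8.51, 8.74 and 9.32 at 0 h, at 9.97, 10.91 and 11.36 (lowest, median, highest) at 24 h, and at 10.25, 10.50 and 10.70 at 48 h. Every array in culture was above every array at 0 h, while 24 h and 48 h overlapped. Mt2 was 4.35-fold higher at 24 h (2.12 ± 0.21, adjusted p = 2.02e-06) and 3.41-fold higher at 48 h (1.77 ± 0.21, adjusted p = 2.11e-05) than at 0 h. Between 48 h and 24 h it differed by -0.35 ± 0.20 (adjusted p = 0.531). Replicate 5 was low among the 24 h arrays, 0.87 below their mean, as it was for Mt1.

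Mt1 stood at 9.75, 9.68, 10.01, 9.97 and 10.22 at 0 h, at 10.67, 11.38 and 11.75 at 24 h, and at 10.60, 10.96 and 11.24 at 48 h. Again no array at 0 h reached the lowest array in culture. The gene was 2.65-fold higher at 24 h (1.41 ± 0.16, adjusted p = 1.18e-05) and 2.00-fold higher at 48 h (1.00 ± 0.16, adjusted p = 0.000551). This probe set is of the _s_at kind, which can bind transcripts of related genes. The other Mt1 probe set, at levels of 4.24 to 5.74, gave 0.61 ± 0.18 at 24 h (adjusted p = 0.0375) and 0.41 ± 0.18 at 48 h, which did not pass (adjusted p = 0.183).

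The promoters of both metallothionein genes and of Gclm are printed because they hold the most matches to the motifs of the 2 pathways among the windows at hand. RefSeq windows (build GRCm38.p6, 250 bases before to 50 after each annotated start) were matched for 7 of the 10 genes, 10 windows in all, and those of Hmox1, Gclc and Gsr were not used here. The motifs searched on both strands were an ARE core, TGACNNNGC, and an MRE core, TGCACNC or TGCGCNC. Capitals mark every match to either, each sequence runs 5′ to 3′ on the strand of the gene, and positions count from 1 at the start and from -1 at the base before it. The windows lie at chr8:94178839-94179138 (Mt1, plus strand), chr8:94172368-94172667 (Mt2, plus strand) and chr3:122245307-122245606 (Gclm, plus strand).
Mt1: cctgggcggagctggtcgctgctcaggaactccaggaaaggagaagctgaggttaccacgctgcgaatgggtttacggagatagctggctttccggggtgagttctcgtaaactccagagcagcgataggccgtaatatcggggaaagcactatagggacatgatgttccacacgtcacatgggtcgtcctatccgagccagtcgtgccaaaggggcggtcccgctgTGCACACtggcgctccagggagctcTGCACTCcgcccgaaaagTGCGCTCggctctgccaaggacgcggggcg
Mt2: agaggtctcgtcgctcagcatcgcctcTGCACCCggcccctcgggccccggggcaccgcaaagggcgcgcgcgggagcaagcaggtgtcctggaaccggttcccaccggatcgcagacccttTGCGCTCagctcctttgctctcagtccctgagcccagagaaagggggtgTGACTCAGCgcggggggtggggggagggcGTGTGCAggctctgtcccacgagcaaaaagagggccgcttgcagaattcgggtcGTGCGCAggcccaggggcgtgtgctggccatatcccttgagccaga
Gclm: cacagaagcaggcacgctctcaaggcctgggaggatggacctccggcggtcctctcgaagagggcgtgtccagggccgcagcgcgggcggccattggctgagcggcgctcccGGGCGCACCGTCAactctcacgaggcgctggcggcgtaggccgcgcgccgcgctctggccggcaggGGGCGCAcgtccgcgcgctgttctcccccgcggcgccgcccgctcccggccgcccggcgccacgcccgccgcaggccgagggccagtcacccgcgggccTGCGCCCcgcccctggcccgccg

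Mt2 held 4 MRE cores, with first bases at -223, -128, -50 and 5, and 1 ARE core at -79 that overlaps a match to the AP-1 motif (TGACTCA or TGAGTCA). In the Mt1 window there were 3 MRE cores, at -23, 3 and 21, and 0 ARE cores. The Gclm window had 3 MRE cores, at -138, -72 and 28, and 1 ARE core at -134 that overlaps the first of them. Among all 32851 promoter windows of that length, 25.7% held an MRE core, 7.11% at least 2 and 0.517% at least 4, while 12.4% held an ARE core and 5.2% the AP-1 motif. Over the 10 windows of the genes, 4 held an ARE core (Gclm, Mt2, Srxn1 and the second of 3 Txnrd1 starts) and 6 an MRE core, among them both Gstm1 windows, which overlap and share 1 site. Nqo1 had neither in its window. These are matches of letters, with no measurement of binding. Distal elements, and any past base 50 after the annotated start, lie outside the windows.

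**Figure D2:**
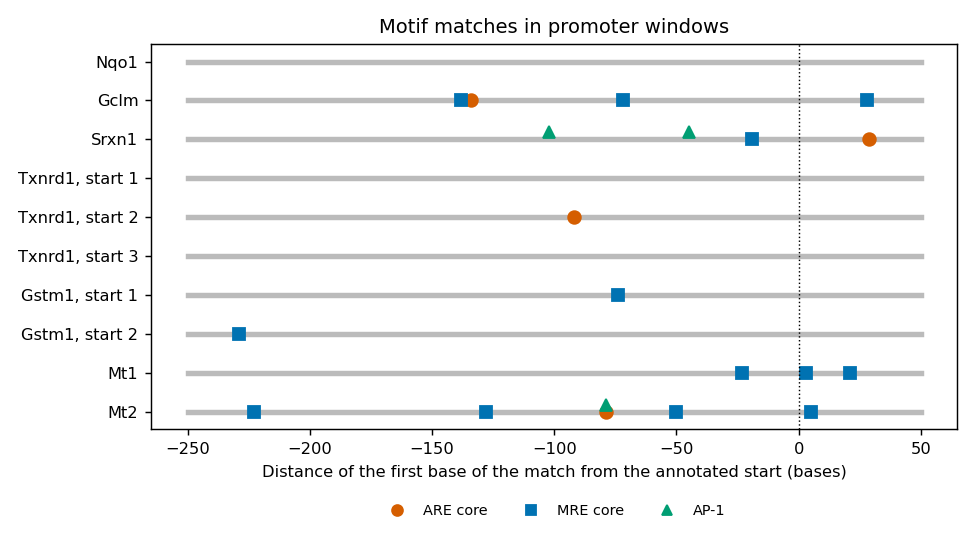
Matches to the ARE core, the MRE core and the AP-1 motif in 10 promoter windows of 7 genes, by the distance of their first base from the annotated start (bases), with 1 grey line per window. Mt2 holds 4 MRE cores, Mt1 and Gclm hold 3 each, and Nqo1 and 2 of the 3 Txnrd1 starts hold no match.

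Glutathione is made in 2 steps, and the first is run by glutamate-cysteine ligase, with Gclc encoding the catalytic and Gclm the modifier subunit. Gclm stood at 8.06, 8.04, 7.15, 7.70 and 7.62 at 0 h, at 8.69, 9.16 and 9.43 at 24 h, and at 8.06, 8.37 and 8.97 at 48 h. No array in culture was below the highest array at 0 h, though at 48 h the margin was small. Gclm was 2.65-fold higher at 24 h (1.41 ± 0.17, adjusted p = 2.01e-05) and 1.65-fold higher at 48 h (0.72 ± 0.17, adjusted p = 0.0119) than at 0 h. From 24 h to 48 h it differed by -0.69 ± 0.16, which did not pass (adjusted p = 0.0735), although the second Gclm probe set fell by 0.61 (adjusted p = 0.0127). The call of the first probe set depended on single arrays: without 48 h replicate 3, 0 h replicate 3 or 24 h replicate 4 it passed, at adjusted p = 0.0269, 0.0355 and 0.0494.

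Gclc had 6.75, 6.62, 7.47, 7.21 and 7.10 at 0 h, 7.59, 8.02 and 8.19 at 24 h, and 7.39, 7.57 and 7.87 at 48 h. The 24 h arrays stood above all 0 h arrays, whereas those at 48 h overlapped them through 0 h replicate 3. It was 1.91-fold higher at 24 h (0.93 ± 0.14, adjusted p = 0.000249) and 1.48-fold higher at 48 h (0.57 ± 0.14, adjusted p = 0.0175). At 48 h it no longer passed once 0 h replicate 1 (0.50, adjusted p = 0.0535) or 0 h replicate 2 (0.46, adjusted p = 0.0542) was left out, and within batch 3 Gclc was 0.04 lower at 48 h than at 0 h. This probe set is of the _s_at kind. A second Gclc probe set gave larger differences, 1.39 at 24 h and 0.74 at 48 h against 0 h, and fell by 0.64 from 24 h to 48 h (adjusted p = 0.0458). By that second probe set the 48 h arrays did not overlap those at 0 h (adjusted p = 0.00258). Batch 3 there stood at 6.24 at 0 h and 7.78 at 48 h.

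Gsr encodes glutathione reductase, which returns oxidised glutathione to its reduced form with NADPH. Its arrays stood at 7.56, 7.43, 7.31, 7.62 and 7.60 at 0 h, at 7.73, 8.25 and 8.58 at 24 h, and at 7.68, 8.30 and 8.56 at 48 h. The times in culture lay above 0 h by a narrow margin and overlapped each other widely. Gsr was 1.55-fold higher at 24 h (0.63 ± 0.16, adjusted p = 0.0137) and 1.64-fold higher at 48 h (0.71 ± 0.16, adjusted p = 0.00617). It was the single gene of the 10 with a higher mean at 48 h than at 24 h, by 0.08 ± 0.15 (adjusted p = 0.884), higher in 3 of 6 batches. Without both 0 h replicate 3 and 24 h replicate 5 the rise at 24 h was 0.56 and no longer passed (adjusted p = 0.0632).

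Gstm1 encodes a mu-class glutathione transferase, which couples glutathione to electrophiles. It had the smallest standard error of the 10: 7.93, 7.98, 8.32, 7.94 and 8.10 at 0 h, 9.51, 9.77 and 9.93 at 24 h, and 9.19, 9.33 and 9.54 at 48 h. The arrays in culture were all far above those at 0 h, and 24 h and 48 h overlapped only narrowly. Gstm1 was 3.22-fold higher at 24 h (1.69 ± 0.09, adjusted p = 8.84e-10) and 2.45-fold higher at 48 h (1.29 ± 0.09, adjusted p = 2.66e-08). From 24 h to 48 h it fell by 0.40 ± 0.09 in 6 of 6 batches, at an adjusted p of 0.0494 that lay at the threshold. That call was lost with the batch as a block (adjusted p = 0.0570) and in 17 others of 29 alternatives, 13 of which dropped a single array (up to adjusted p = 0.111, for 24 h replicate 2).

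This Gstm1 probe set is of the _x_at kind, which can bind close relatives such as other mu-class genes, so its level is uncertain as that of Gstm1 alone. The brighter of its probe sets without that suffix gave 1.77 at 24 h and 1.39 at 48 h against 0 h, and -0.38 between 48 h and 24 h (adjusted p = 0.0715). The remaining 2 Gstm1 probe sets gave 1.42 and 0.62 at 24 h, and all 4 were higher at 24 h and at 48 h than at 0 h.

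The thioredoxin system reduces protein disulfides, with Txnrd1 encoding cytosolic thioredoxin reductase, and Srxn1 encodes sulfiredoxin, which repairs over-oxidised peroxiredoxins. Srxn1 stood at 6.91, 6.74, 6.61, 6.86 and 6.78 at 0 h, at 7.92, 8.02 and 8.57 at 24 h, and at 7.27, 7.57 and 7.72 at 48 h. As for Hmox1, the 3 times did not overlap. Srxn1 was 2.49-fold higher at 24 h (1.32 ± 0.11, adjusted p = 2.31e-07) and 1.70-fold higher at 48 h (0.76 ± 0.11, adjusted p = 0.000147) than at 0 h. It fell by 0.56 ± 0.10 from 24 h to 48 h (adjusted p = 0.0178), in 6 of 6 batches. Without 48 h replicate 2 that fall was 0.53 and just missed the threshold (adjusted p = 0.0549). With only the arrays compared it missed the threshold too (adjusted p = 0.0501). This probe set is of the _s_at kind, and without _x_at and _s_at probe sets the fall was 0.43 and did not pass (adjusted p = 0.133). As the mean of its probe sets Srxn1 dropped by 0.35 and passed.

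Txnrd1 stood at 9.40, 8.91, 9.33, 9.63 and 9.20 at 0 h, at 10.12, 10.30 and 10.69 at 24 h, and at 9.60, 10.28 and 10.34 at 48 h. The single overlap with 0 h came from 48 h replicate 6, at 9.60, since the other 48 h arrays lay between 10.25 and 10.34. Txnrd1 was 2.10-fold higher at 24 h (1.07 ± 0.15, adjusted p = 8.31e-05) and 1.84-fold higher at 48 h (0.88 ± 0.15, adjusted p = 0.000717, and 0.51 as the mean of its probe sets). Between 48 h and 24 h the difference was -0.19 ± 0.14 (adjusted p = 0.662).

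Nqo1 encodes a quinone reductase that is widely used as a readout of NRF2. It stood at 4.43, 4.63, 4.45, 4.73 and 4.63 at 0 h, at 5.17, 5.33 and 5.67 at 24 h, and at 4.64, 5.12 and 5.57 at 48 h. At 24 h all arrays were above those at 0 h, and at 48 h replicate 1 (4.64) lay within the 0 h range. Nqo1 was 1.75-fold higher at 24 h (0.81 ± 0.14, adjusted p = 0.000531) and 1.43-fold higher at 48 h (0.51 ± 0.14, adjusted p = 0.0224). The rise at 48 h missed the threshold once 0 h replicate 1 (adjusted p = 0.0578), 0 h replicate 3 (adjusted p = 0.0568) or 48 h replicate 6 (adjusted p = 0.0530) was left out.

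**Figure D3:**
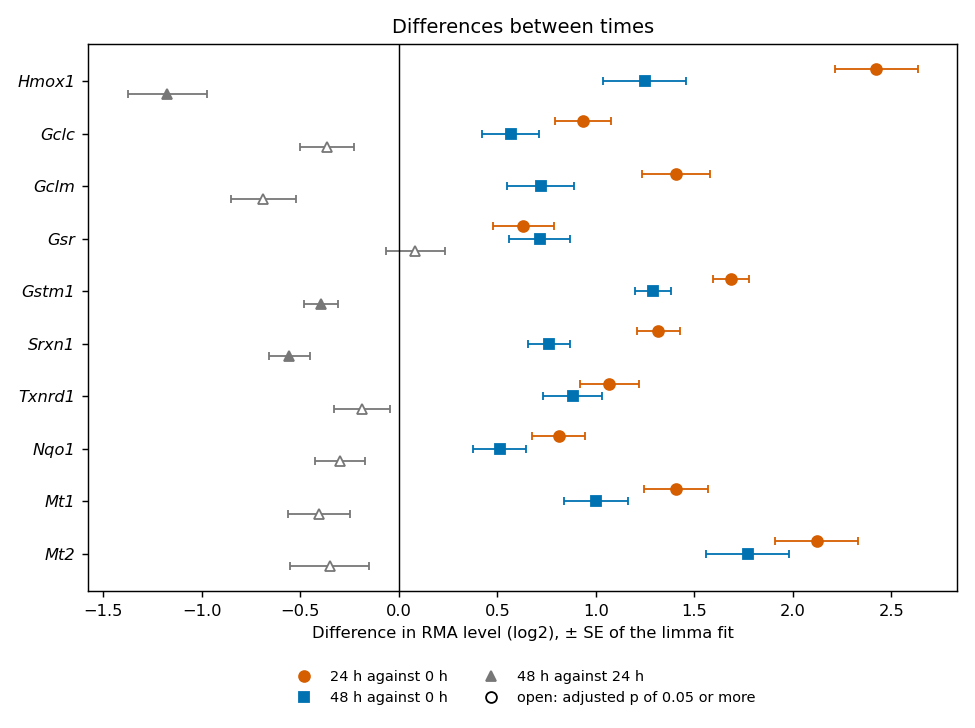
Log2 difference ± SE (limma) of the 10 genes at 24 h against 0 h (circles), at 48 h against 0 h (squares) and at 48 h against 24 h (triangles), filled where the adjusted p was under 0.05. All circles and squares are filled and lie right of 0, from 0.51 to 2.42, and 3 triangles are filled, those of Hmox1, Srxn1 and Gstm1.

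The study's design text describes a selection of probe sets by a mean linear signal above 4-fold of that at 0 h, and this was applied with no test. At 24 h, 2 of the 10 genes were past it, Hmox1 (5.76-fold) and Mt2 (4.48-fold), against 0.154% of all genes. At 48 h, 0 of the 10 were past it, against 0.121% of all genes, and Mt2 was the nearest at 3.35-fold.

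Of the 22 probe sets, 21 passed as higher at 24 h than at 0 h, against 3.86% of all 45037 probe sets, and 18 at 48 h, against 4.67%. From 24 h to 48 h 5 fell, against 0.178%. The one that did not pass at 24 h was a Srxn1 probe set with differences of 0.07 at 24 h and -0.06 at 48 h, at levels of 4.04 to 4.62, whereas the other 2 that did not stand for Srxn1 gave 1.00 and 1.41 at 24 h. Of the 2 other Txnrd1 probe sets, the brighter gave 1.12 at 24 h and 0.51 at 48 h (adjusted p = 0.199), and the dimmer gave 0.53 and 0.14 (adjusted p = 0.592) at levels near the table's median. The second Gsr probe set matched the first, with 0.62 and 0.61.

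**Figure D4:**
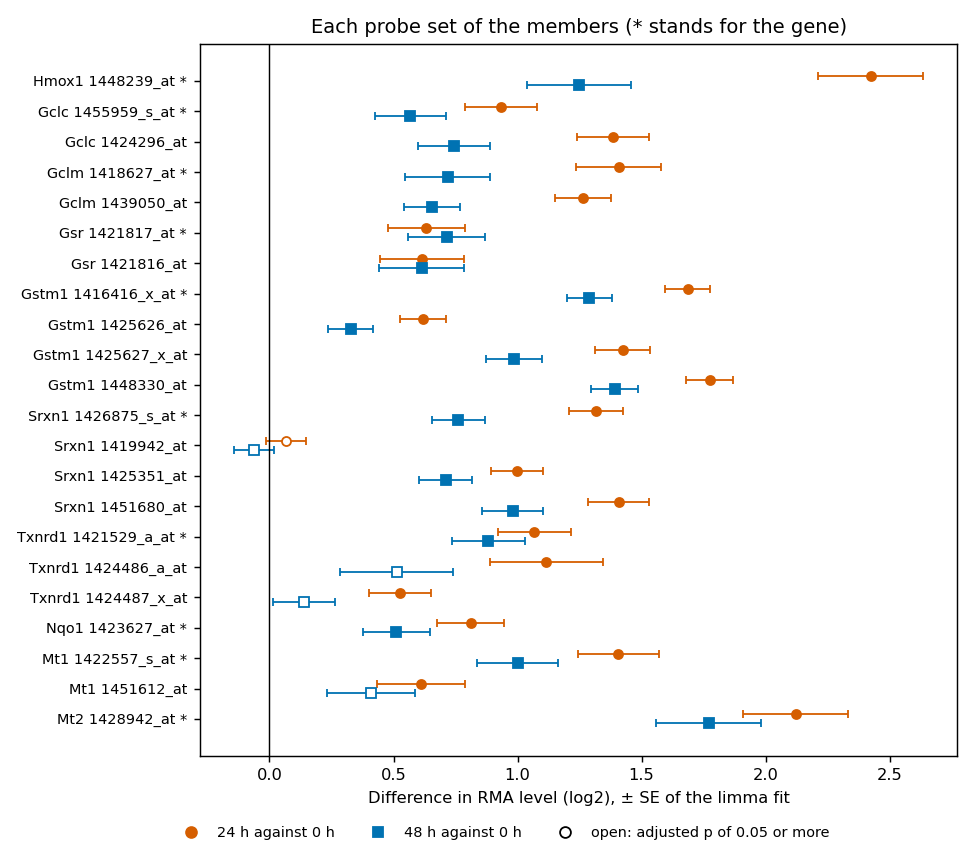
Log2 difference ± SE (limma) for each of the 22 probe sets at 24 h against 0 h (circles) and 48 h against 0 h (squares), filled where the adjusted p was under 0.05; an asterisk marks the probe set with the highest mean level, which stands for the gene. Of the circles 21 are filled, and of the squares 18.

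Within batches, all 10 genes were higher at 24 h than at 0 h in 5 of 5 batches, by 0.12 (Gsr, batch 6) to 3.19 (Hmox1, batch 6). At 48 h, 9 of the 10 were higher in 5 of 5 batches and Gclc in 4 of 5, by the probe set that stands for each gene. From 24 h to 48 h, Hmox1, Gclc, Gclm, Gstm1 and Srxn1 were lower in 6 of 6 batches, Mt2 in 5, Mt1 and Nqo1 in 4, and Gsr and Txnrd1 in 3. On no array did all 10 genes lie on the same side of the mean of their time. The most uneven were 24 h replicate 1 and 0 h replicate 6, each with 8 of the 10 above it. The mean deviation of the 10 genes from the mean of their time ran from -0.19 (24 h replicate 5) to 0.15 (24 h replicate 1), and single arrays held opposite extremes. Replicate 6 at 24 h, for example, was 0.90 above the mean for Hmox1 and 0.41 below it for Gsr, and replicate 3 at 0 h was 0.44 above it for Gclc and 0.57 below it for Gclm. The Gclc probe sets disagreed on that 0 h array. By the other Gclc probe set it was the lowest at 0 h, at 6.24 against a mean of 6.55.

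Levels of other cell types moved over the same times, and their part in the results above was not tested. In bulk islets, fewer cells of a type and less RNA per cell cannot be told apart. The mean of 9 measured endocrine markers was 10.82 to 11.25 at 24 h, against 11.38 to 11.73 at 0 h, a difference of -0.52 (exact permutation p adjusted over 21 tests = 0.00758). At 48 h it was 10.91 to 11.36 (-0.41 against 0 h, exact adjusted p = 0.0101). Between 48 h and 24 h the mean differed by 0.10 (exact adjusted p = 0.369). Singly, 5 of the 9 fell and 0 rose at 24 h, against 6.66% of all genes that fell, with a median of -0.38 and 1 above 0. At 48 h 3 fell and 0 rose, against 5.27% of all genes that fell, with a median of -0.16 and 0 above 0.

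Endothelial markers (10 measured) stood at 4.92 to 5.14 at 24 h and 4.39 to 4.85 at 48 h, against 5.78 to 6.12 at 0 h, and differed by -0.87 and -1.33 (exact adjusted p = 0.00758 for each). Acinar markers (10 measured) stood at 3.99 to 7.59 at 24 h and 3.61 to 5.64 at 48 h, against 5.69 to 8.99 at 0 h (-0.73, exact adjusted p = 0.481, and -2.55, exact adjusted p = 0.0101). Against 0 h the acinar list passed at 48 h alone. At 48 h against 24 h, over which Hmox1, Srxn1 and Gstm1 fell, the endothelial list differed by -0.45 (exact adjusted p = 0.00758) and the acinar list by -1.82 (exact adjusted p = 0.0341). The acinar call was lost without 24 h replicate 1, 2, 3 or 6 or 48 h replicate 1, 2 or 4 (highest exact adjusted p = 0.0568). Macrophage markers (13 measured) lay at 4.72 to 5.10 at 24 h and 5.08 to 5.50 at 48 h, against 5.02 to 5.61 at 0 h. That list was lower at 24 h (-0.37, exact adjusted p = 0.0136) and did not pass at 48 h (0.05, exact adjusted p = 0.737), and it was higher at 48 h than at 24 h (0.42, exact adjusted p = 0.0101). Its members Itgam and Mrc1 were under the table's median on all arrays.

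Fibroblast and stellate cell markers (9 measured) stood at 3.92 to 4.10 at 24 h and 4.45 to 4.75 at 48 h, against 4.26 to 4.61 at 0 h. Their mean was lower at 24 h (-0.39, exact adjusted p = 0.00758) and higher at 48 h (0.28, exact adjusted p = 0.0331). The call of the mean at 48 h was lost without 48 h replicate 1, 2, 4 or 5 (highest exact adjusted p = 0.0694). Singly, 3 of the 9 fell and 0 rose at 24 h (median -0.16), against 6.66% of all genes that fell. At 48 h 3 rose and 0 fell, against 6.45% of all genes that rose. The median at 48 h was 0.02, with 5 of the 9 above 0. From 24 h to 48 h this list rose by 0.67 (exact adjusted p = 0.00758). Duct markers (5 measured; 4.72 to 4.93 at 24 h, 4.59 to 4.84 at 48 h and 4.41 to 5.55 at 0 h) did not pass at either time against 0 h (exact adjusted p = 0.892 and 0.482). They were lower at 48 h than at 24 h (-0.14, exact adjusted p = 0.0420), a call lost without 24 h replicate 1, 2, 3 or 6 or 48 h replicate 1, 2, 4 or 6 (highest exact adjusted p = 0.0874). The 3 red blood cell markers measured, red cells being a source of haem, lay at 2.51 to 2.95 at 24 h, 2.62 to 2.86 at 48 h and 2.69 to 2.97 at 0 h, under the table's median (exact adjusted p = 0.327 and 0.156 against 0 h, and 0.892 at 48 h against 24 h). Hba-a1 and Alas2 on that list, Tie1, Lum, and the duct markers Sox9 and Cftr were under that median on all arrays.

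The transcripts of NRF2, KEAP1 and MTF1 themselves did not pass. Nfe2l2 had 8.45, 8.63 and 9.08 (lowest, median, highest) at 24 h and 8.48, 8.68 and 8.98 at 48 h, against 8.13, 8.32 and 8.75 at 0 h, with overlap at both times (0.33 ± 0.13, adjusted p = 0.127, and 0.30 ± 0.13, adjusted p = 0.165). Keap1 differed by 0.33 ± 0.15 at 24 h (adjusted p = 0.216) and 0.43 ± 0.15 at 48 h (adjusted p = 0.090), and Mtf1 by -0.23 ± 0.08 (adjusted p = 0.098) and -0.03 ± 0.08 (adjusted p = 0.881). All 24 h arrays of Mtf1 (highest 6.85) lay below those at 0 h (lowest 6.88), as for 883 of all 18193 genes. NRF2 is known to be controlled mainly as a protein, which arrays do not measure. Nfe2l2 did pass at 24 h without 0 h replicate 3 (0.43, adjusted p = 0.0383) and with the mean of its 2 probe sets (0.40, adjusted p = 0.0473). It also passed at 24 h without both 0 h replicate 3 and 24 h replicate 5 (0.46, adjusted p = 0.0356). Keap1 passed at both times with the mean of its 2 probe sets (0.31, adjusted p = 0.0354, and 0.32, adjusted p = 0.0290).

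Of 15 measured regulators of NRF2 and MTF1, 6 rose and 1 fell at 24 h and 6 rose and 0 fell at 48 h, with medians of 0.33 and 0.37. Beside the shares that rose given above, 6.66% of all genes fell at 24 h and 5.27% at 48 h. Sqstm1, whose protein p62 draws KEAP1 into autophagy, rose by 1.18 at 24 h (adjusted p = 2.73e-07) and 0.75 at 48 h, or 0.64 and 0.35 as the mean of its probe sets. The small MAF genes Maff and Mafg, partners of NRF2, rose by 0.92 and 0.68 at 24 h and by 0.69 and 0.65 at 48 h. Bach1, the competing repressor, rose by 0.47 at 24 h (adjusted p = 0.0162) and 0.62 at 48 h (adjusted p = 0.00247), calls lost with the mean of its 2 probe sets (adjusted p = 0.147 and 0.220). Without both 0 h replicate 3 and 24 h replicate 5 the rise of Bach1 at 24 h was 0.39 and did not pass (adjusted p = 0.0543). Btrc, named after its values were seen, which encodes an adaptor of an E3 ligase that also acts on NRF2, fell by 0.51 at 24 h (adjusted p = 0.0180) and did not pass at 48 h (-0.24). With the mean of its probe sets it did not pass at 24 h either (-0.13, adjusted p = 0.193).

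**Figure D5:**
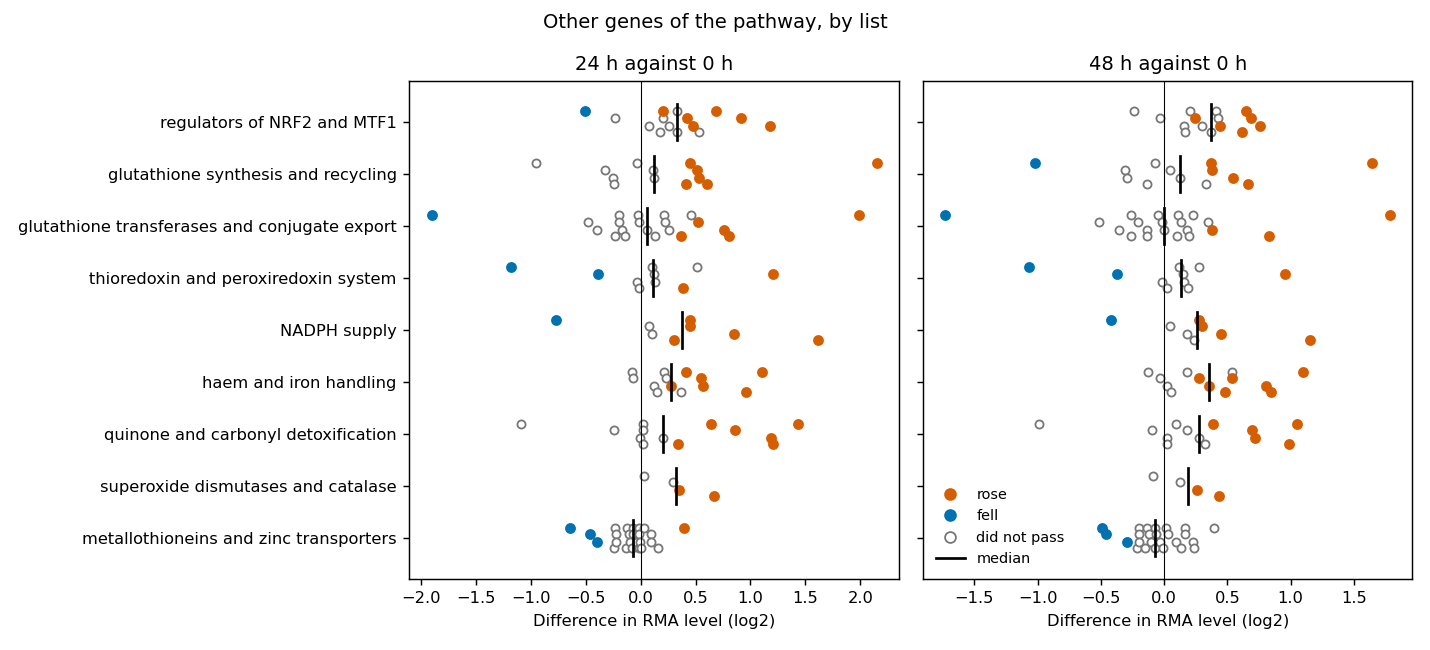
Log2 difference of each measured gene on 9 lists of related genes at 24 h against 0 h (left) and 48 h against 0 h (right), with orange points for genes that rose, blue for those that fell, open for those that did not pass, and a black bar for the median of the list. Points for Gpx2 and Gstp1 lie farthest right at 24 h, at 2.15 and 1.99, and Mgst1 lies farthest left at -1.90.

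Besides Gclc, Gclm and Gsr, 13 genes of glutathione synthesis and recycling were measured, of which 6 rose and 0 fell at 24 h and 5 rose and 1 fell at 48 h (medians 0.12 and 0.13). Gpx2, a glutathione peroxidase of epithelia and a known NRF2 target, stood at 7.14, 7.73 and 8.22 at 24 h and 6.83, 7.18 and 7.67 at 48 h, against 5.31, 5.40 and 6.20 at 0 h. Its arrays in culture did not overlap those at 0 h, and it rose by 2.15 ± 0.19 (adjusted p = 4e-07) and 1.65 ± 0.19 (adjusted p = 1.15e-05). Gpx4, which reduces lipid peroxides, rose by 0.61 at 24 h and did not pass at 48 h (0.13). Its other probe set gave 0.96 at 24 h and passed at 48 h (0.48, adjusted p = 0.0322 with _x_at and _s_at probe sets left out). Gpx3, a secreted peroxidase, fell at 48 h at the threshold (-1.02, adjusted p = 0.0491, lost in 17 of 29 alternatives, up to adjusted p = 0.121 without 0 h replicate 1). Slc7a11, the cystine carrier and an NRF2 target, passed with 0.53 and 0.66 (0.31 and 0.33 as the mean of its probe sets), but its levels were under the table's median on all arrays.

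Among 21 other glutathione transferases and exporters of conjugates, 5 rose and 1 fell at 24 h and 3 rose and 1 fell at 48 h, with medians of 0.06 and -0.00. Gstp1, the pi-class transferase, rose with a standard error close to that of Gstm1, by 1.99 ± 0.11 (adjusted p = 8.84e-10) and 1.79 ± 0.11 (adjusted p = 3.43e-09). It stood at 10.59, 10.91 and 11.11 at 24 h and 10.55, 10.65 and 10.94 at 48 h, against 8.59, 8.88 and 9.23 at 0 h, with no overlap. Gstm2 rose by 0.80 and 0.83. Mgst1, a membrane-bound transferase, fell by 1.90 and 1.73, or by 0.87 and 0.80 as the mean of its probe sets, and it was under the table's median on all 24 h arrays and on 5 of 6 at 48 h, against a range of 3.43 to 6.63 at 0 h.

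Of 10 other genes of the thioredoxin and peroxiredoxin system, 2 rose and 2 fell at 24 h and 1 rose and 2 fell at 48 h (medians 0.11 and 0.13). The single rise at 48 h, 1 of 10, was near the 6.45% of all genes. Sesn2, a stress-induced sestrin, rose by 1.21 at 24 h (adjusted p = 0.00489) and 0.95 at 48 h (adjusted p = 0.0261, lost in 8 of 29 alternatives, up to adjusted p = 0.0805 without 0 h replicate 4). Txn1, thioredoxin itself, rose by 0.39 at 24 h (adjusted p = 0.00115, and 0.21, adjusted p = 0.0523, as the mean of its probe sets) and did not pass at 48 h (0.12, adjusted p = 0.355). Txnip, a thioredoxin-binding protein that is induced by glucose in beta cells, fell by 1.18 and 1.07. The dimmer Txnip probe set did not pass at 24 h (-0.50, adjusted p = 0.113) or 48 h (-0.38, adjusted p = 0.237). Prdx4, the peroxiredoxin of the endoplasmic reticulum, fell by 0.39 and 0.37. The fall of Prdx4 at 48 h was lost without 0 h replicate 1, 3 or 6 or 48 h replicate 5 (highest adjusted p over the alternatives 0.0833). At 24 h its fall was lost without both 0 h replicate 3 and 24 h replicate 5 (-0.36, adjusted p = 0.0643) and with the mean of its probe sets (-0.14, adjusted p = 0.343).

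NADPH feeds both glutathione and thioredoxin reduction, and of 8 genes measured for its supply 5 rose and 1 fell at 24 h and 4 rose and 1 fell at 48 h (medians 0.37 and 0.26). Malic enzyme, Me1, rose by 1.62 ± 0.15 at 24 h (adjusted p = 1.35e-06) and 1.15 ± 0.15 at 48 h. Pgd of the pentose phosphate pathway rose by 0.85 and 0.45 (0.73 at 48 h without _x_at and _s_at probe sets), and fell by 0.40 from 24 h to 48 h (adjusted p = 0.0162). That fall passed by its other _x_at probe sets (adjusted p = 0.0190 and 0.0284) but not by the one without that suffix (-0.39, adjusted p = 0.168). Nnt, the mitochondrial transhydrogenase, fell by 0.77 and 0.42 against 0 h (0.51 at 24 h as the mean of its probe sets) and was 0.35 higher at 48 h than at 24 h (adjusted p = 0.0209). By its other probe sets the difference between 48 h and 24 h was 0.13 and 0.11 and did not pass (adjusted p = 0.622 and 0.710).

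Haem oxygenase splits haem and so yields biliverdin and iron, and biliverdin is then reduced to bilirubin. Of 13 other genes of haem and iron handling, 6 rose and 0 fell at 24 h and 7 rose and 0 fell at 48 h (medians 0.28 and 0.36). The biliverdin reductase gene Blvra rose by 0.96 and 1.10. Blvrb, another reductase, rose by 0.57 at 24 h and 0.36 at 48 h, the second at the threshold (adjusted p = 0.0498, and 0.0755 with the batch as a block), and that call was lost in 19 of 29 alternatives (up to adjusted p = 0.119 without 0 h replicate 3). Slc40a1, the iron exporter ferroportin, rose by 1.11 ± 0.11 and 0.85 ± 0.11. Tfrc, the transferrin receptor, rose by 0.55 at 24 h (adjusted p = 0.0286, and 0.0826 with the batch as a block, lost in 10 of 29 alternatives) and 0.80 at 48 h (adjusted p = 0.00214), or 0.20 (adjusted p = 0.0849) and 0.40 as the mean of its probe sets. The constitutive haem oxygenase gene Hmox2 differed by 0.21 ± 0.08 at 24 h (adjusted p = 0.120) and 0.28 ± 0.08 at 48 h (adjusted p = 0.0346, lost in 10 of 29 alternatives, up to adjusted p = 0.0989 without 0 h replicate 3), against 2.42 and 1.25 for Hmox1.

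Of 13 genes of quinone and carbonyl detoxification other than Nqo1, 6 rose and 0 fell at 24 h and 5 rose and 0 fell at 48 h (medians 0.20 and 0.27). Ugdh, which makes UDP-glucuronate, rose by 1.43 and 0.99. The aldo-keto reductase gene Akr1b8 rose by 1.21 and 0.72, from 0 h levels of 3.38 to 3.88 around the table's median. Ephx1, the microsomal epoxide hydrolase, rose by 1.19 and 0.70 and fell by 0.49 from 24 h to 48 h (adjusted p = 0.0127), and Aox1, an aldehyde oxidase, rose by 0.86 and 1.05. Of the 4 genes for superoxide dismutases and catalase, 2 rose and 0 fell at each time (medians 0.32 and 0.19). Those were mitochondrial Sod2 (0.66 and 0.43, with its 4 probe sets between -0.32 and 0.66 at 24 h and a mean of 0.29 and 0.22) and cytosolic Sod1 (0.35 and 0.26).

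Of 25 other metallothioneins and zinc transporters measured, 1 rose and 3 fell at 24 h and 0 rose and 3 fell at 48 h (medians -0.07 and -0.07). The 4 of 25 that passed at 24 h and the 3 of 25 at 48 h were near the shares of all genes that passed in either direction at those times. Slc30a1, a zinc exporter and known MTF1 target, differed by 0.16 ± 0.15 at 24 h (adjusted p = 0.645) and 0.40 ± 0.15 at 48 h (adjusted p = 0.126, and 0.0269 without 24 h replicate 6). Mt3, the brain metallothionein, differed by 0.09 and -0.07 and did not pass. Slc30a8, the transporter that loads zinc into insulin granules, fell by 0.65 ± 0.10 at 24 h (adjusted p = 0.000159) and 0.46 ± 0.10 at 48 h (adjusted p = 0.00435), in the direction of the endocrine markers. The zinc importers Slc39a14 and Slc39a13 fell by 0.47 and 0.40 at 24 h, the first to -0.05 with no call as the mean of its 4 probe sets (adjusted p = 0.621), and Slc39a10 fell by 0.49 at 48 h (adjusted p = 0.0234). The Slc39a10 call was lost without 0 h replicate 1 or 2 or 48 h replicate 3 or 4, and with the mean of its 2 probe sets (adjusted p = 0.431).

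Genes outside the 10 with the most similar course were ranked by the root mean square difference, over 17 arrays, between log2 values taken relative to each gene's own 0 h mean. For Hmox1 these were Angptl6 (0.332), Cip2a (0.421) and Inhbb (0.482). For Gclm they were Steap1 (0.293), Ephx1 (0.299) and Sesn2 (0.305), and for Mt2 they were Gstp1 (0.356), Ier3 (0.359) and Angptl6 (0.363). Angptl6, for example, was 2.22 higher at 24 h and 1.52 higher at 48 h than at 0 h, and Ephx1, Sesn2 and Gstp1 are on the lists described above.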

How the data were processed

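Expression was measured in mouse islets on 17 single-colour arrays, 1 per batch and time. The deposited values were log2 levels that the authors computed with RMA, per the submitters' processing notes. Those notes name no version or log base, and base 2 was taken from the range of 1.55 to 13.81. RMA includes a quantile step, so most of any general rise or fall of RNA would be hidden, although array medians still differed slightly, and it shrinks differences at low levels. Control probe sets (64) were left out and 45037 were tested, of which the platform annotation gave 34945 a single symbol, 932 several and 9160 none. A gene was represented by its probe set with the highest mean.

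One mean per time was fitted to all 17 arrays with limma 3.58.1 in R 4.3.3 (lmFit, eBayes), with p-values adjusted per comparison by Benjamini-Hochberg over all 45037 and a threshold of 0.05. The procedure was tested on simulated data. Means of marker lists were compared with two-sided exact permutation tests. Groups and batches came from the labels and the design text. Arrays of the same batch share a pool of mice. After subtracting the mean of each time they correlated at a median of 0.00545 over 16 pairs (range -0.159 to 0.274), and limma's consensus correlation was 0.0183. The genes, lists and tests were chosen with earlier results of these data known. Named genes of a list were the 3 largest changes that passed at each time, and a fixed set of regulators and relatives, to which Btrc was added after its values were seen. Alternatives tried were a fixed or random block for batch, complete batches, each array left out, array weights, another variance prior, 2 rescalings, a filter on level, other choices of probe set, and only the arrays compared.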

Additional observations from a re-analysis of the deposited data

Results flagged for a closer look

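An array lay far from the others of its time, by Dixon's criterion for single extreme values, in 3 of 51 groups of values examined (10 genes and 7 marker lists at 3 times). Chance gives about 1 in 20. For Srxn1, 24 h replicate 6 had 8.57 where the other 24 h arrays had 7.92 to 8.10, and the same array held the highest Hmox1 level. For Txnrd1, 48 h replicate 6 had 9.60 where the other 48 h arrays had 10.25 to 10.34, which produced the overlap of that gene with the 0 h arrays. In 48 h replicate 5 the acinar markers averaged 5.64, and in the other 48 h arrays 3.61 to 4.09.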

How the results depend on the processing

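Each gene was recomputed under 29 alternatives. Of 870 differences of the 10 genes, 835 kept their direction and their side of the threshold, 28 lost the call, 7 gained it and 0 reversed. The number of the 10 that rose at 24 h was 10 without any 1 array and 9 without both arrays that stood apart. At 48 h against 0 h it was 8 to 10 without 1 array, and Mt1 was lost without _x_at and _s_at probe sets (0.41, adjusted p = 0.190). The 3 that fell from 24 h to 48 h became 5 with the mean of probe sets, 1 with only the arrays compared and 1 to 4 without 1 array. With the replicate block they became 2, and apart from Gstm1, Tfrc and Blvrb the block changed no call of the 10 genes or, against 0 h, of a gene named from the lists. Over all genes, the 60 lower at 48 h than at 24 h became 117 without both arrays that stood apart, 101 with array weights and 31 to 100 without 1 array (31 without 48 h replicate 2). Reversed values were Mtf1 (0.00672 with median centring) and Btrc (0.00243 with the mean of probe sets) at 48 h against 0 h, and marker means that had not passed. These were duct at 24 h against 0 h (0.159 without both arrays, -0.149 to 0.137 without 1), macrophage at 48 h against 0 h (-0.0146 to 0.134 without 1 array) and red blood cell at 48 h against 24 h (0.00562 with complete batches, 0.0304 without both arrays, -0.0592 to 0.0304 without 1). The cause of these shifts was not tested. Levels near background limit Hmox1 at 0 h and the weaker probe sets.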
